A study of Oryza sativa Japonica Group with 6 samples.

Results

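Light-harvesting proteins of photosystem I are encoded in rice by nuclear Lhca genes, and the 6 loci described here were chosen as members of this family by their MSU locus identifiers, out of 55986 loci in the deposited files. They are Lhca1 (LOC_Os06g21590), Lhca2 (LOC_Os07g38960), Lhca3 (LOC_Os02g10390), Lhca4 (LOC_Os08g33820) and a pair of further Lhca genes given here by their loci, LOC_Os02g52650 and LOC_Os09g26810. The names Lhca1 to Lhca4 come from the choice of the family and not from the deposited files, and the study's table describes these loci only as chlorophyll A-B binding proteins, so the pairing of loci as dimer partners rests on the names. The loci lie on chromosomes 6, 7, 2, 8, 2 and 9 in that order. All 6 were in the files and all 6 passed the filter on low values.

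The OEZ plants were of the japonica variety Zhonghua17 and overexpressed OsLTPL159, a nonspecific lipid transfer protein gene, as its IL112 allele driven by a cauliflower mosaic virus promoter that is active in most tissues. The control plants (ZH17) were nontransformed Zhonghua17. Both were early seedlings with buds of about 5 mm that had been kept at 2 °C for 3 h, and each genotype was represented by 3 biological replicates that pooled 50 plants each, whose values are given in the order 1, 2 and 3. Every pool was cold-treated, so a response to cold cannot be read from these samples. How many transformation events the OEZ pools held is not given in the sources used here. OsLTPL159 (LOC_Os10g36160) itself had 2506, 2539.9 and 2502 FPKM in the OEZ pools, against 141, 138 and 131 FPKM in the ZH17 pools, an 18.4-fold higher mean in OEZ.

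Lhca proteins bind chlorophyll and carotenoids and pass the energy of absorbed light to the photosystem I core. In flowering plants, the main members sit as dimers, Lhca1 with Lhca4 and Lhca2 with Lhca3, in a belt along one side of the core. In Arabidopsis, further members of low abundance help to attach photosystem I to the chloroplast NADH dehydrogenase-like complex. Transcripts of nuclear antenna genes are known to accumulate in greening shoots with light and chloroplast development.

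The 4 main Lhca genes were lower in OEZ than in ZH17, at 0.590 to 0.647 of the ZH17 level, and LOC_Os09g26810 was higher, at 1.59 of the ZH17 level. LOC_Os02g52650, the gene with the lowest level of the family, was at 0.705 of the ZH17 level, short of the criterion on fold change. A gene was called where its fold change was at least 1.5 and its adjusted p was under 0.05 in limma, a linear model per gene with variances moderated across genes, with p values adjusted by the Benjamini-Hochberg method over 22841 tested loci. With this call 4 of the 6 Lhca genes were lower in OEZ, against 1.42% of all tested loci, and 1 of the 6 was higher, against 1.56% of all tested loci, so that 5 of 6 were called in either direction, against 2.98%. Among the 1420 tested loci averaging 100 FPKM or more, the range in which Lhca1 to Lhca4 fall, 2.25% were called lower and 2.32% higher, 4.58% in all. In 5 of the 6 genes every OEZ pool was below every ZH17 pool, which held for 13.2% of all tested loci, and in the remaining gene, LOC_Os09g26810, every OEZ pool was above every ZH17 pool, which held for 16.0% of all tested loci. Groups without overlap in either direction made up 29.2% of tested loci. Of the 6 loci, 5 (all but LOC_Os02g52650) also stand in the study's list of differentially expressed genes, which was drawn from the same libraries and is not independent evidence of their direction.

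**Figure D1:**
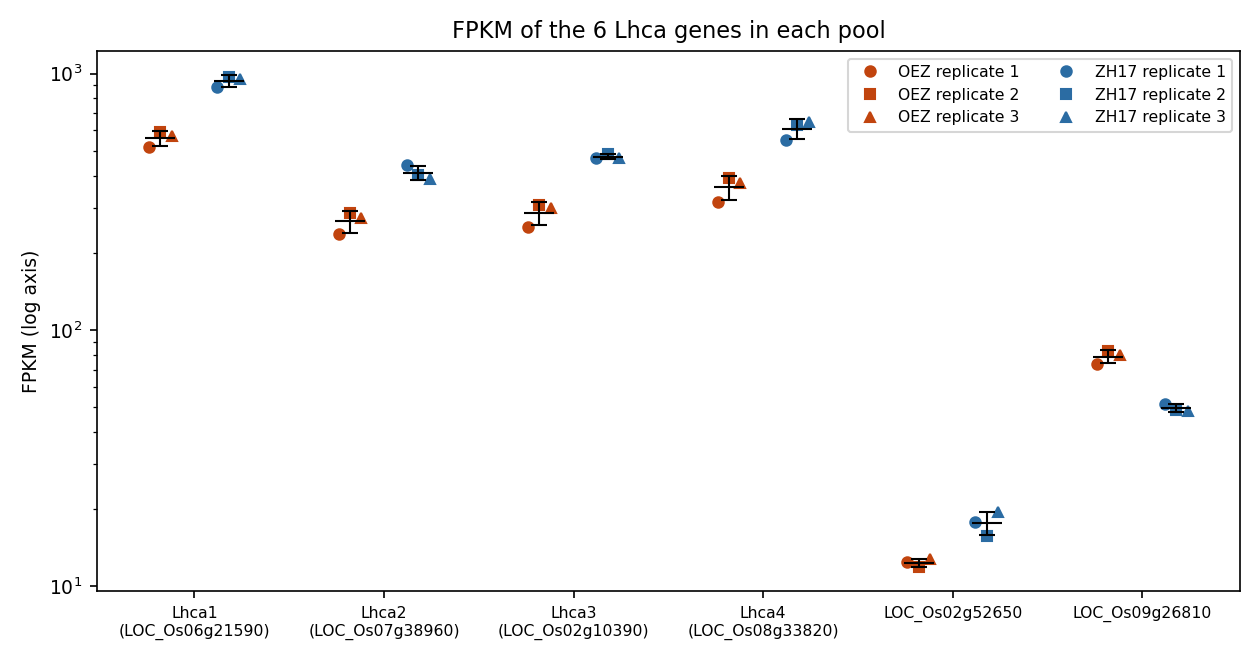
FPKM (log axis) of the 6 Lhca genes in the 3 OEZ pools and the 3 ZH17 pools, with a bar at the mean of each genotype and whiskers of 1 SD. Lhca1 to Lhca4 and LOC_Os02g52650 lie lower in OEZ and LOC_Os09g26810 lies higher, without overlap between the genotypes in any of the 6.

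Lhca1, which pairs with Lhca4, had the highest level of the family in FPKM, a fragment number scaled by transcript length and library size. Its FPKM was 517, 590.4 and 572 in the OEZ pools, against 884, 974 and 954 in the ZH17 pools. The highest OEZ pool was 293 FPKM below the lowest ZH17 pool. Lhca1 averaged 559.7 ± 38.4 FPKM in OEZ and 937 ± 47.3 FPKM in ZH17 (SD, n = 3 pools), which is a log2 fold change of -0.74 (SE 0.07, adjusted p = 0.00318 by limma).

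Lhca4, its partner, followed the same course at a lower level, with 315, 392 and 373 FPKM in the OEZ pools, against 549, 631 and 649.6 FPKM in the ZH17 pools. The genotypes were separated by 157 FPKM, and the widest spread among replicates of the main members was found here, with a coefficient of variation of 11.1% in OEZ and 8.78% in ZH17. The log2 fold change was -0.76 with a standard error of 0.10 (adjusted p = 0.00974, limma), and the 95% interval of the fold was 0.499 to 0.697.

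Lhca3, a partner of the other dimer, had 252, 306 and 299 FPKM in the OEZ pools, against 469, 486 and 468 FPKM in the ZH17 pools. The ZH17 pools were within a coefficient of variation of 2.10%, whereas OEZ replicate 1 stood apart from the other OEZ pools and gave OEZ a coefficient of 10.3%. The log2 fold change was -0.74 (SE 0.08, adjusted p = 0.00523 by limma).

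Lhca2, the other partner, had the smallest fold change in size among the 4 main members. It had 236, 285 and 274 FPKM in the OEZ pools, against 439, 401 and 389 FPKM in the ZH17 pools. Here the order of the ZH17 pools differed from that of Lhca1 and Lhca4, since ZH17 replicate 1 was the highest and not the lowest. The log2 fold change was -0.63 (SE 0.09, adjusted p = 0.0107 by limma). Without OEZ replicate 1 it was -0.55 and without ZH17 replicate 1 it was -0.58, both short of 1.5-fold, so the call of this gene rested on those pools. Lhca1, Lhca3, Lhca4 and LOC_Os09g26810 stayed called whichever of the 6 pools was left out.

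LOC_Os02g52650 was expressed at a level far below the main members. Its FPKM was 12.4, 11.9 and 12.8 in the OEZ pools, against 17.7, 15.7 and 19.4 in the ZH17 pools. The OEZ pools were close together and all below the ZH17 pools, with a gap of 2.98 FPKM. The means were 12.4 ± 0.428 FPKM in OEZ and 17.6 ± 1.85 FPKM in ZH17 (SD, n = 3 pools). The log2 fold change of -0.50 (SE 0.09, adjusted p = 0.0251 by limma) had a 95% interval of -0.72 to -0.29, which holds folds on both sides of the 1.5-fold criterion. The same held for the intervals of all called members, such as -0.91 to -0.57 in Lhca1 and 0.52 to 0.82 in LOC_Os09g26810.

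LOC_Os09g26810 went the other way. Its FPKM was 73.5, 82.6 and 80.1 in the OEZ pools, against 51.4, 48.7 and 48.3 in the ZH17 pools. The lowest OEZ pool exceeded the highest ZH17 pool by 22.0 FPKM. The means were 78.7 ± 4.71 FPKM in OEZ and 49.5 ± 1.70 FPKM in ZH17 (SD, n = 3 pools), which is a log2 fold change of 0.67 (SE 0.06, adjusted p = 0.00288 by limma).

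An exact permutation test (two-sided) reached p = 0.1 for each of the 6 genes, the limit for groups of 3.

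**Figure D2:**
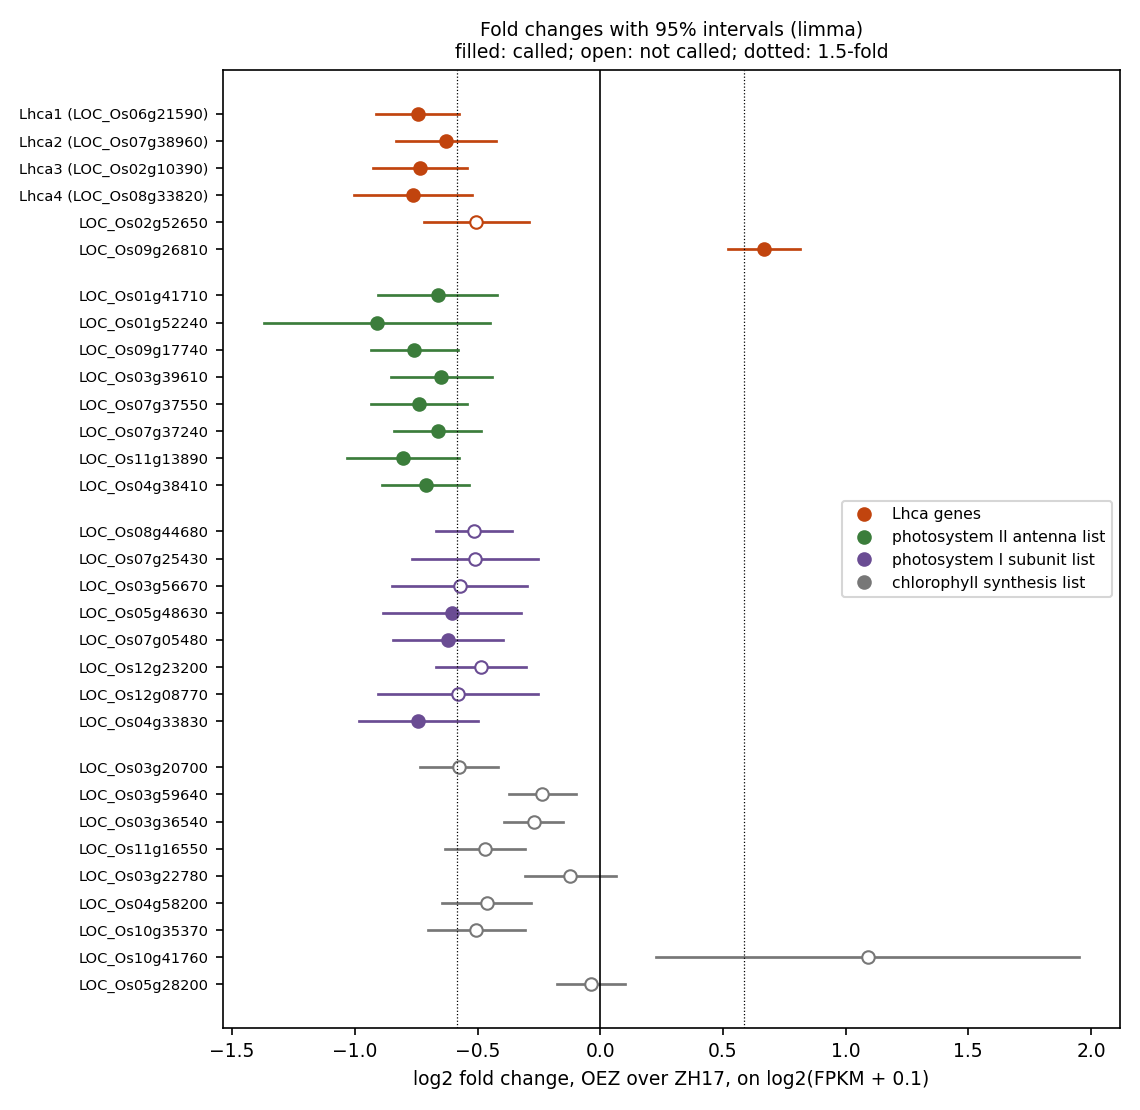
Log2 fold changes, OEZ over ZH17, on log2(FPKM + 0.1), as points with 95% intervals from limma, for the 6 Lhca genes and for 3 gene lists, with filled points for called loci and open points for loci not called. Lhca1 to Lhca4 lie between -0.76 and -0.63, the photosystem II antenna list between -0.91 and -0.65, and LOC_Os09g26810 lies at 0.67.

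The order of levels was the same in both genotypes and ran from Lhca1 through Lhca4, Lhca3, Lhca2 and LOC_Os09g26810 to LOC_Os02g52650. In OEZ the FPKM of Lhca3 and Lhca2 overlapped among pools, with means in a ratio of 1.08, and all other neighbours in the order were separated. In ZH17 all neighbours were separated, and the means of Lhca3 and Lhca2 were in a ratio of 1.16. The step from Lhca2 to LOC_Os09g26810 was 3.37-fold in OEZ and 8.28-fold in ZH17, whereas the step from LOC_Os09g26810 to LOC_Os02g52650 was 6.37-fold in OEZ and 2.81-fold in ZH17. By mean FPKM over the genotypes, Lhca1 ranked 98th, Lhca4 220th, Lhca3 298th and Lhca2 346th among the 22841 tested loci, with LOC_Os09g26810 at rank 2252 and LOC_Os02g52650 at rank 8559.

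Summed over the 6 genes, the FPKM was 1406, 1668 and 1612 in the OEZ pools, against 2409.6, 2556 and 2528 in the ZH17 pools. Lhca1 to Lhca4 made up nearly all of it. Within the sum, Lhca1 accounted for 35.9 ± 0.751% in OEZ and 37.5 ± 0.738% in ZH17 (SD, n = 3 pools). The share of LOC_Os09g26810 was 5.22%, 4.95% and 4.97% in the OEZ pools, against 2.13%, 1.91% and 1.91% in the ZH17 pools. LOC_Os02g52650 stayed under 1% of the sum in every pool, with 0.714% to 0.882% in OEZ and 0.616% to 0.768% in ZH17.

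**Figure D3:**
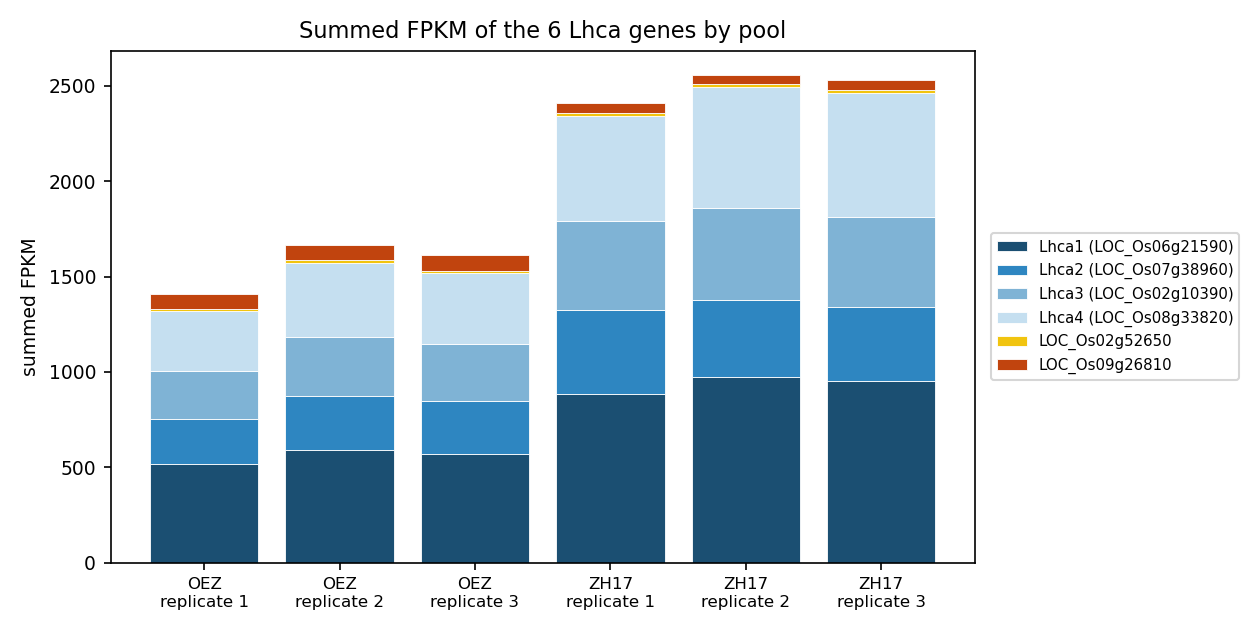
Summed FPKM of the 6 Lhca genes in each pool, stacked by gene, with OEZ replicates 1 to 3 left of ZH17 replicates 1 to 3. The sum lies between 1406 and 1668 in OEZ and between 2409.6 and 2556 in ZH17, and LOC_Os09g26810 takes a larger share of the OEZ bars.

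Ratios between members within a pool do not depend on the scaling of the library, and 15 pairs were compared. Among the 6 pairs of Lhca1 to Lhca4, every ratio overlapped between the genotypes, and the differences in log2 ratio had absolute values from 0.01 to 0.13. The ratio of Lhca1 to its partner Lhca4 was 1.64, 1.51 and 1.53 in the OEZ pools, against 1.61, 1.54 and 1.47 in the ZH17 pools. Lhca2 and its partner Lhca3 stood at 0.939, 0.933 and 0.917 in the OEZ pools, against 0.937, 0.826 and 0.830 in the ZH17 pools. The partners of each dimer were thus in ratios whose genotypes could not be separated with 3 pools each. The 5 pairs with LOC_Os09g26810 were the only pairs without overlap. This outcome was fixed by the single genes, so it restates their separation and adds no evidence. LOC_Os09g26810 was higher in every OEZ pool than in any ZH17 pool, and the other 5 genes were lower. Lhca1 exceeded LOC_Os09g26810 by 7.03-fold, 7.15-fold and 7.14-fold in the OEZ pools, against 17.2-fold, 19.98-fold and 19.7-fold in the ZH17 pools (log2 ratio, exact permutation p = 0.1, two-sided and the smallest possible, or 0.3 when adjusted over the 15 pairs). Lhca1 over LOC_Os02g52650 was 41.6, 49.6 and 44.8 in the OEZ pools, against 49.8, 61.9 and 49.1 in the ZH17 pools, with overlap.

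Replicates of OEZ differed from each other in a common direction for most members. OEZ replicate 1 was the lowest OEZ pool for 5 of the 6 genes, with a deviation from the OEZ mean of -12.5% to -7.70% for Lhca1 to Lhca4, and OEZ replicate 2 was the highest for the same 5. LOC_Os09g26810 followed this order although it was higher in OEZ, with a deviation of -6.66% in replicate 1 and 4.90% in replicate 2. LOC_Os02g52650 was the exception, with OEZ replicate 2 as its lowest OEZ pool. Among the ZH17 pools the members had no common order, and ZH17 replicate 1 was the lowest for Lhca1 and Lhca4 and the highest for Lhca2 and LOC_Os09g26810. The difference between the genotypes in each gene exceeded these differences among replicates.

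Pools of whole seedlings can hold shoot, root and remains of the grain, and in bulk samples fewer cells of a type and less RNA per cell cannot be told apart. The alpha-amylase genes of the germinating grain, a list of 7 loci, summed to 1.89, 233 and 2.05 FPKM in the OEZ pools, against 82.3, 219 and 156 FPKM in the ZH17 pools. OEZ replicates 1 and 3 were thus nearly without these transcripts, and LOC_Os08g36900 and LOC_Os09g28420 were listed at 0 in both. LOC_Os02g52700 had the lowest log2 fold change of the list, -5.17 (limma adjusted p = 0.183), and LOC_Os08g36910 the highest, -0.60 (limma adjusted p = 0.477). None of the 6 tested alpha-amylase loci was called by limma, while 4 were called lower without OEZ replicate 2. With all pools, 2 had an unadjusted p under 0.05, a limit whose share over all loci was not computed. LOC_Os02g52700, LOC_Os02g52710, LOC_Os06g49970 and LOC_Os08g36910 stand in the study's table. Lhca1 to Lhca4 summed to 1573.7 FPKM in OEZ replicate 2, against 2340.5 to 2491 FPKM in the ZH17 pools. With OEZ replicate 2 as the only OEZ pool, a fit chosen after seeing the data in which this lone pool is assumed to vary like the ZH17 pools, the log2 fold changes of Lhca1 to Lhca4 were -0.67, -0.52, -0.63 and -0.63, that of LOC_Os02g52650 was -0.56 and that of LOC_Os09g26810 was 0.74, and none of the 6 was called, with 4 loci called in all. Without OEZ replicate 2, 5 of the 6 genes were called. The part of grain content in the lower Lhca levels was not tested.

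Root markers, a list of 5 loci, summed to 1683, 1509.6 and 1662 FPKM in the OEZ pools, against 1476, 1208 and 987 FPKM in the ZH17 pools. All OEZ pools were above all ZH17 pools. LOC_Os02g44310 made up most of this sum, and it overlapped between the genotypes, with 1322 to 1492 FPKM in OEZ and 827 to 1332 FPKM in ZH17. LOC_Os03g46470 had the highest log2 fold change of the list, 0.61 (limma adjusted p = 0.303), and LOC_Os02g51110 the lowest, 0.13 (limma adjusted p = 0.244). LOC_Os03g01700 had 104.7, 95.4 and 96.9 FPKM in the OEZ pools, against 66.7, 80.03 and 78.7 FPKM in the ZH17 pools, without overlap (log2 fold change 0.40, limma adjusted p = 0.0391). None of the 4 tested root loci was called by limma, 1 was called higher without ZH17 replicate 1, and all 4 were higher in OEZ on average. With all pools, 2 had an unadjusted p under 0.05, a limit whose share over all loci was not computed. The part of root content in the lower Lhca levels was not tested.

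**Figure D4:**
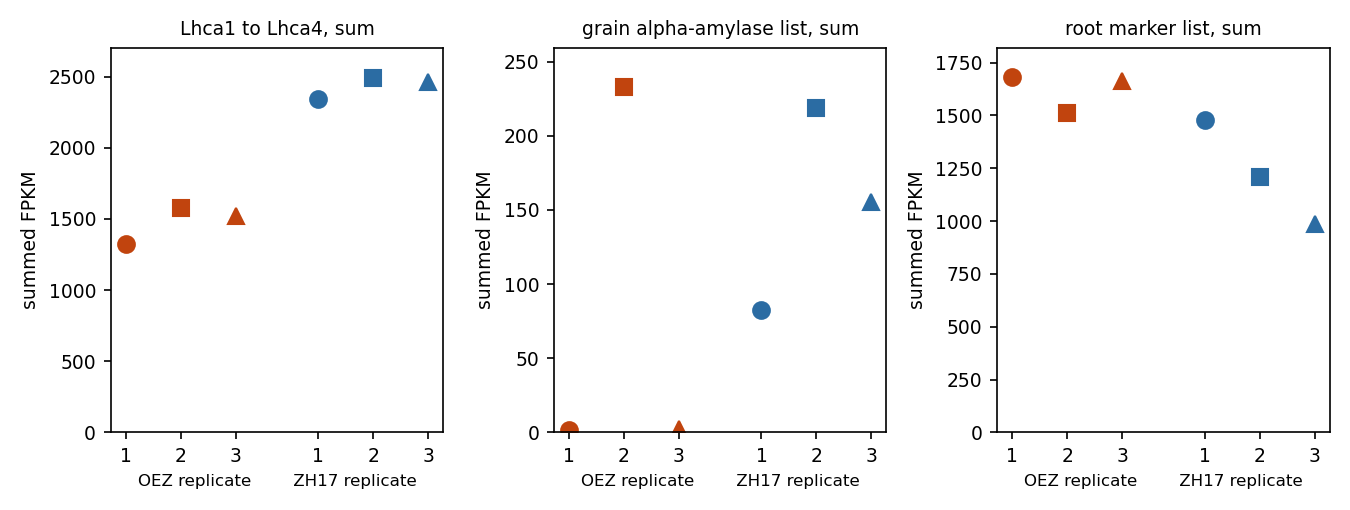
Summed FPKM of Lhca1 to Lhca4, of the grain alpha-amylase list and of the root marker list, each point a pool, with OEZ left of ZH17. The Lhca1 to Lhca4 sums are lower in all OEZ pools, the alpha-amylase sums are 1.89, 233 and 2.05 FPKM in OEZ and 82.3, 219 and 156 FPKM in ZH17, and the root marker sums are higher in all OEZ pools. The part of either list in the Lhca levels was not tested.

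The antenna proteins of photosystem II, which belong to the same protein family and feed the other photosystem, were compared as a list of 8 loci, all of which stand in the study's table from the same libraries, so that their direction is not independent evidence. All 8 were lower in OEZ and all 8 were called lower, against 1.42% of all tested loci. The median log2 fold change was -0.72, against 0.02 over all tested loci. The lowest was that of LOC_Os01g52240, -0.91 (limma adjusted p = 0.0436), and the highest that of LOC_Os03g39610, -0.65 (limma adjusted p = 0.00999). LOC_Os01g52240 carries another description in the study's table, starch synthase, and without it 7 of 7 were called with a median of -0.71. Without OEZ replicate 1 the count was 5 of 8. How reads shared between similar antenna genes were assigned is not given in the sources used here, so single values of close relatives are uncertain. The summed FPKM of Lhca1 to Lhca4 was 0.249, 0.241 and 0.232 of that of the photosystem II list in the OEZ pools, against 0.231, 0.236 and 0.253 in the ZH17 pools. The antenna transcripts of both photosystems were therefore in overlapping proportions in the genotypes, 0.240 ± 0.00834 in OEZ and 0.240 ± 0.0117 in ZH17 (SD, n = 3 pools).

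Nuclear subunits of the photosystem I core, to which the Lhca belt attaches, were a list of 9 loci. Of these, 8 were tested and all 8 had every OEZ pool below every ZH17 pool, which held for 13.2% of all tested loci. The ninth, LOC_Os09g30340, was listed at 0 in all pools. The 3 loci called lower, against 1.42% of all tested loci, were LOC_Os05g48630, LOC_Os07g05480 and LOC_Os04g33830, and none was called higher. These 3 stand in the study's table, as do LOC_Os03g56670 and LOC_Os12g08770, which were not called here. The median log2 fold change was -0.58. It was lowest in LOC_Os04g33830, with 372.6, 469.7 and 484 FPKM in the OEZ pools, against 748, 746 and 709.6 FPKM in the ZH17 pools (log2 fold change -0.74, limma adjusted p = 0.0111). It was highest in LOC_Os12g23200 (log2 fold change -0.48, limma adjusted p = 0.0177). The called count depended on single pools, with 0 calls without ZH17 replicate 2 and 1 call without OEZ replicate 1. With all pools, 7 of the 8 were lower at an adjusted p under 0.05, against 718 of all 22841 tested loci. Lhca1 to Lhca4 summed to 0.441, 0.436 and 0.437 of the photosystem I subunits in the OEZ pools, against 0.438, 0.501 and 0.520 in the ZH17 pools.

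Chlorophyll synthesis enzymes provide the pigment that these proteins bind. None of the 9 loci of this list was called by limma, and the median log2 fold change was -0.27. At an unadjusted p under 0.05, a limit whose share over all loci was not computed, 6 were lower and 1 higher. At an adjusted p under 0.05, 5 were lower and 0 higher, against 718 lower and 653 higher of the 22841 tested loci. Without ZH17 replicate 1, 2 loci were called lower. The lowest was that of LOC_Os03g20700, a magnesium chelatase gene, with 36.6 ± 0.298 FPKM in OEZ and 54.7 ± 4.12 FPKM in ZH17 (SD, n = 3 pools, log2 fold change -0.58, limma adjusted p = 0.00622), just short of 1.5-fold. The highest was that of LOC_Os10g41760, described as chlorophyllide a oxygenase, which had 0.879, 0.694 and 0.611 FPKM in the OEZ pools, against 0.193, 0.301 and 0.389 FPKM in the ZH17 pools (log2 fold change 1.09, limma adjusted p = 0.136). LOC_Os03g20700 and LOC_Os10g41760 both stand in the study's table. Relative to the summed FPKM of this list, Lhca1 to Lhca4 stood at 1.33, 1.65 and 1.51 in the OEZ pools. They stood at 1.93, 1.76 and 1.83 in the ZH17 pools, without overlap, which held for 29.2% of single tested loci. A single locus, LOC_Os04g58200, made up most of the summed FPKM of the list, with means of 673 FPKM in OEZ and 930 FPKM in ZH17.

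Rubisco small subunit and activase genes, as markers of green shoot tissue, had a lower mean FPKM in OEZ at all 4 tested loci. None of the 4 was called by limma, and the median log2 fold change was -0.40. At an adjusted p under 0.05, 3 of the 4 were lower, against 718 of all 22841 tested loci. LOC_Os11g47970 was lowest at -0.58 (limma adjusted p = 0.00287), at the edge of the 1.5-fold criterion, and LOC_Os12g19470 highest at -0.22 (limma adjusted p = 0.275). LOC_Os11g47970 stands in the study's table. In this list 1 locus was called lower without OEZ replicate 2, without OEZ replicate 3 and without ZH17 replicate 2. The sum of Lhca1 to Lhca4 over that of this list was 1.04, 1.14 and 1.08 in the OEZ pools. It was 1.37, 1.43 and 1.33 in the ZH17 pools, again without overlap. Of single tested loci, 29.2% had no overlap, and no such share was computed for ratios of sums.

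GOLDEN2-like factors, transcriptional activators of antenna and chlorophyll synthesis genes, were represented by LOC_Os06g24070, described as a myb-like protein, and LOC_Os01g13740. LOC_Os06g24070 was called lower, with 27.1, 23.1 and 24.1 FPKM in the OEZ pools, against 39.8, 47.8 and 43.6 FPKM in the ZH17 pools (log2 fold change -0.82, limma adjusted p = 0.00538). LOC_Os01g13740 had 29.1 ± 1.89 FPKM in OEZ and 36.9 ± 3.04 FPKM in ZH17 (SD, n = 3 pools) and was not called (log2 fold change -0.34, limma adjusted p = 0.0622). Early light-induced proteins, stress-related relatives of the antenna proteins, were found at low levels. LOC_Os07g08150 was called lower, with 0.699, 1.43 and 0.772 FPKM in the OEZ pools, against 3.17, 2.39 and 2.24 FPKM in the ZH17 pools (log2 fold change -1.39, limma adjusted p = 0.0404), and the call was lost when OEZ replicate 1 or 3 or ZH17 replicate 1 or 2 was left out. LOC_Os01g14410 overlapped between the genotypes, with 2.38 to 4.68 FPKM in OEZ and 3.08 to 7.47 FPKM in ZH17 (limma adjusted p = 0.387). It was not called here but stands in the study's table.

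The loci whose profile over the 6 pools was most like the mean log2 profile of Lhca1 to Lhca4 were sought among 14699 other loci averaging 5 FPKM or more. The first 5 by Pearson's r were LOC_Os07g37550 (r = 0.998), LOC_Os04g38410 (r = 0.997), LOC_Os01g64960 (r = 0.997), LOC_Os07g48310 (r = 0.997) and LOC_Os07g37240 (r = 0.996). Of these, LOC_Os07g37550, LOC_Os04g38410 and LOC_Os07g37240 are chlorophyll A-B binding protein genes of the photosystem II antenna list. These values describe 6 pools that fall into 2 genotypes and share the libraries, and they carry no test. The difference itself was not large in each of them, since LOC_Os07g48310 had 18.3 ± 0.409 FPKM in OEZ and 20.7 ± 0.0829 FPKM in ZH17 (SD, n = 3 pools). Against the mean of the main members, LOC_Os02g52650 had r = 0.902 and LOC_Os09g26810 had r = -0.931 over the same 6 pools.

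Neighbouring loci were compared with each member to see whether its change was shared along the chromosome. Around Lhca1, Lhca2, Lhca3 and Lhca4, the medians of the 10 tested loci before and of the 10 after ranged from -0.17 to 0.23 on the log2 fold change scale. None of these neighbours was called lower, against 1.42% of all tested loci, a share that gives few calls among so few loci. Only LOC_Os06g22000 near Lhca1 (log2 fold change 1.54) and LOC_Os02g10520 near Lhca3 (1.08) were called higher, against 1.56% of all tested loci. LOC_Os07g38900 near Lhca2 was at -0.84 and was not called. LOC_Os02g52650 had medians of -0.12 and -0.08 beside it, although the alpha-amylase genes LOC_Os02g52700 and LOC_Os02g52710, with log2 fold changes of -5.17 and -4.96, lie among the 10 tested loci after it. For LOC_Os09g26810 the medians were 1.001 before it and 0.83 after it, and all 20 neighbours had a positive log2 fold change. Of the 20, 15 were called higher, against 1.56% of all tested loci. All 20 lie in a chromosome 9 stretch that was itself found from this comparison, so the count is a description and not a test.

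LOC_Os09g26810 lies in a stretch of chromosome 9 from LOC_Os09g24720 to LOC_Os09g27040 that was found from the same comparison, so its values are given as a description. The stretch held 112 tested loci with a median log2 fold change of 0.93 (interquartile range 0.75 to 1.10). Of these, 82 were called higher, against 1.56% of all tested loci, and LOC_Os09g26810 was the 98th in order along the stretch. Its log2 fold change of 0.67 ranked 96th of the 112 from the highest. The tested loci next to it were LOC_Os09g26800, described as polygalacturonase, with 126, 111 and 116 FPKM in the OEZ pools, against 56.4, 54.0 and 57.6 FPKM in the ZH17 pools, and LOC_Os09g26820, described as an exocyst subunit, with 13.0, 12.3 and 12.7 FPKM in the OEZ pools, against 7.42, 7.57 and 6.15 FPKM in the ZH17 pools. One locus further on each side, LOC_Os09g26780, a zinc-finger gene, had a log2 fold change of 1.89 and LOC_Os09g26830, a seven-transmembrane domain gene, of 1.13. Both neighbours on each side were called higher, by more than LOC_Os09g26810. Among the 6 members, the one in this stretch was the one that was higher in OEZ, and its part in the direction of LOC_Os09g26810 was not tested.

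**Figure D5:**
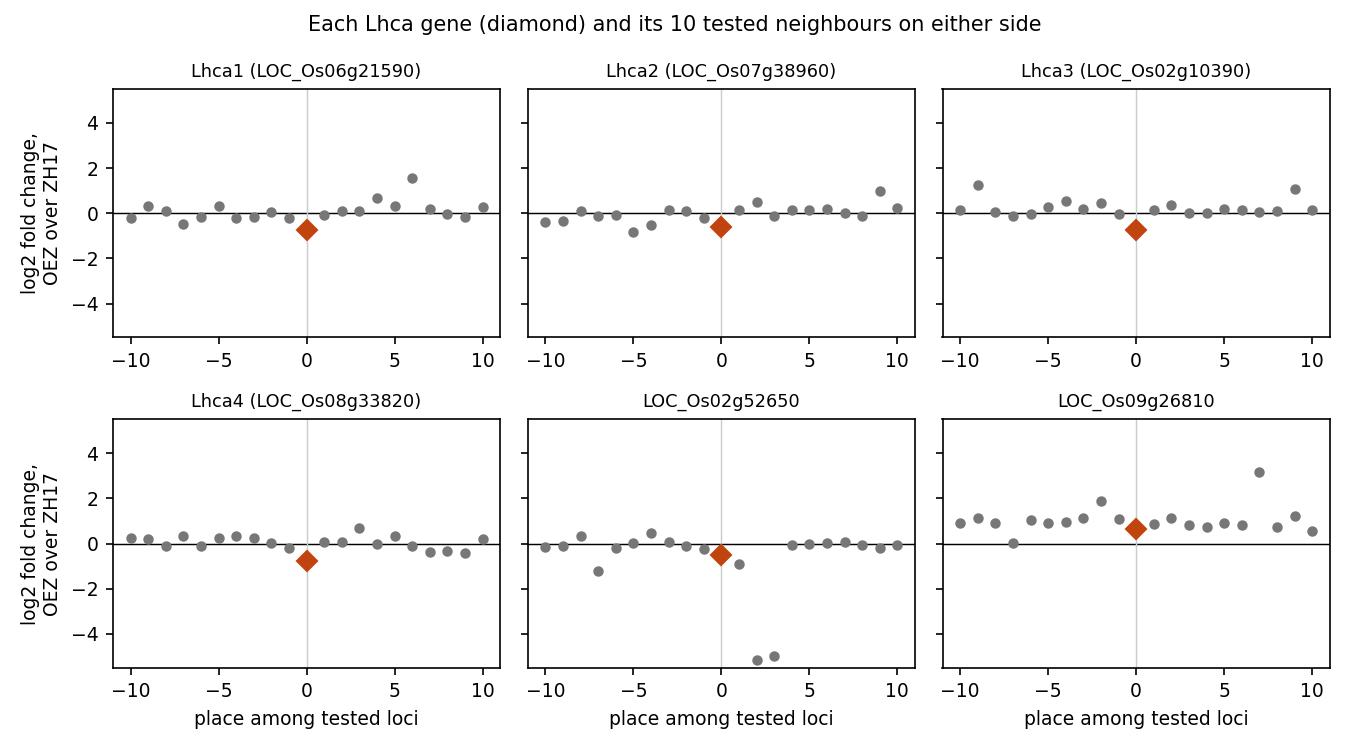
Log2 fold change, OEZ over ZH17, of each Lhca gene (diamond at place 0) and of the 10 tested loci on each side in locus order (points). The neighbours of the first 5 members lie on both sides of 0. Apart from a pair of alpha-amylase loci near -5 beside LOC_Os02g52650, they range from -1.20 to 1.54. The neighbours of LOC_Os09g26810 all lie above 0.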

How the data were processed

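Paired-end reads were mapped by the authors, per the submitters' processing notes and the methods of the study, to the Nipponbare genome IRGSP-1.0 (MSU7 annotation) with TopHat2, and the authors obtained FPKM per locus from Cuffdiff. Tool versions and the scaling between libraries are not given in the sources used here. The deposited FPKM values were used as given. They hold no read counts. Summed FPKM was 859282 to 902931 in OEZ and 856329 to 864333 in ZH17, and relative depth, read from the most frequent ratio of low values, was 1.02 to 1.32 in OEZ and 1.0 to 1.16 in ZH17.

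Loci averaging 0.5 FPKM or more (22841) were fitted by genotype with limma 3.58.1 in R 4.3.3 on log2(FPKM + 0.1), a scale that understates changes of low genes, with empirical Bayes, a variance trend and Benjamini-Hochberg adjustment over all of them. Permutation tests used scipy 1.17.1. The fit was tested on simulated data. Alternatives were other pseudocounts, filters, scalings, thresholds and sets of pools.

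Members and lists were chosen with earlier results of these data known, and the lists rest on general knowledge of rice loci, with descriptions from the study's table. Named loci were the members, the overexpressed gene, the highest and lowest of each list, the early light-induced and GOLDEN2-like loci, 2 neighbours on each side of LOC_Os09g26810 and the 5 loci of most similar profile. Others were chosen after their values were seen. These were photosystem I subunits called or in the study's table, and alpha-amylases at 0, beside a member or in that table. The named neighbours of Lhca1 to Lhca3, LOC_Os04g58200, LOC_Os02g44310 and LOC_Os03g01700 were also chosen in this way. The reference gene table matched 0 of the 6 loci, so sequences were not used here.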

Additional observations from a re-analysis of the deposited data

How the results depend on the processing

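The 6 log2 fold changes kept their signs under all 20 alternatives. Of the Lhca genes, 4 or 5 were called when each pool was left out in turn, Lhca2 being the one lost. At a fold change of at least 2 the count was 0. With OEZ replicate 2 as the only OEZ pool, the log2 fold changes were -0.67 in Lhca1 and -0.52 in Lhca2. They were -0.63 in Lhca3 and in Lhca4, -0.56 in LOC_Os02g52650 and 0.74 in LOC_Os09g26810. Without a criterion on fold change, 6 were called. The count over all loci was 681, and it was 290 at a fold change of at least 2, 1371 without that criterion, 321 with the replicate number as a block, and 327 to 967 when a pool was left out. Among the fits with a pool left out, the lowest count came without OEZ replicate 3. The total was also 358 without OEZ replicate 1, 420 without OEZ replicate 2 and 367 without ZH17 replicate 2. With the replicate block, 4 Lhca genes were called and Lhca2 was not (limma adjusted p = 0.0682). It called 3 fewer loci of the photosystem I list, 0 in all, and lost LOC_Os07g08150. Same-numbered samples correlated by -0.06 to 0.03 in their deviations, so the numbers were not taken to pair them. Pseudocounts of 1 and 0.01, filters, scaling by median ratios or quantiles, the variance trend, the ratio of means and leaving out the other loci of the chromosome 9 stretch, with LOC_Os09g26810 kept, left the 5 calls in place. Scaling shifted the median of all loci by under 0.1. Without OEZ replicate 1, 5 of the 8 photosystem II loci were called, and without OEZ replicate 2, 4 alpha-amylase loci were called lower. Of the Rubisco list 1 locus was called lower with a pseudocount of 0.01 and with either scaling, and 3 without a criterion on fold change. Of the chlorophyll synthesis list 1 locus was called lower with median-ratio scaling and 5 without that criterion. FPKM values give no read numbers, so the counting error of the low members is unknown.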
